A study of Rattus norvegicus with 84 samples.

Results

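The mRNAs described here encode 10 proteins of the growth cone and the plastic axon: Basp1, Gap43, Marcks, Marcksl1, Stmn1, Stmn2, Stmn3, Ncam1, Dpysl2 and Calm3. They were chosen by name as known proteins of axon growth, with earlier results of these data known. Each was found once among the 18782 annotated genes of the mRNA count table. The samples were extracellular vesicles (EVs), the membrane-bound particles that cells release, prepared from brain tissue and from plasma of 21 male wild-type adult Sprague-Dawley rats in 7 groups of 3 rats. Healthy rats had no surgery. Control rats had transient occlusion of the right middle cerebral artery for 90 min, received saline through the carotid artery on day 3, and were sampled 4, 10 or 31 days after stroke. Rats of the hNSCs groups had the same stroke and the same route of injection on day 3, but received human neural stem cells, a fetal brain-derived cell line and were sampled on the same days. All 6 stroke groups therefore had both operations, and no group had sham surgery, so stroke and surgery cannot be told apart in a comparison with healthy rats. Brain EVs were isolated from a small piece of frozen brain of each rat, taken from the right hemisphere in stroke rats. The study's methods name no side for healthy rats. Which part the piece held, whether lesion, border or spared tissue, is not given in the sources used here and may differ between libraries.

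Growth cones are the motile tips of growing axons. Gap43, Basp1, Marcks and Marcksl1 are membrane-bound proteins that bind phosphoinositides and, in most cases, calmodulin, and through them regulate the actin cortex. Stathmins bind tubulin and destabilize microtubules. Stmn1 is found in many dividing and differentiating cells, whereas Stmn2 and Stmn3 are largely neuronal and are anchored to membranes. Dpysl2, also called CRMP2, binds tubulin and favours axon extension, Ncam1 is a cell adhesion molecule of neurons and some immune cells, and Calm3 encodes calmodulin, a calcium sensor. Gap43 and Stmn2 are classical markers of axonal sprouting after injury.

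The promoters of Stmn3 and Basp1 are shown because these genes moved in opposite directions relative to each other in the brain libraries, as described further on. RefSeq promoter sequences of the GRCr8 assembly were matched for 5 of the 10 genes (Basp1, Marcks, Marcksl1, Stmn1 and Stmn3). The 250 bases before the annotated start are given 5′ to 3′ on the strand of the gene, and capitals mark the GC box GGGCGG or its complement CCGCCC, the site bound by Sp1-type factors. The Stmn3 stretch lies on the minus strand of chromosome 3 (188802495 to 188802744) and the Basp1 stretch on the minus strand of chromosome 2 (77594298 to 77594547).
Stmn3: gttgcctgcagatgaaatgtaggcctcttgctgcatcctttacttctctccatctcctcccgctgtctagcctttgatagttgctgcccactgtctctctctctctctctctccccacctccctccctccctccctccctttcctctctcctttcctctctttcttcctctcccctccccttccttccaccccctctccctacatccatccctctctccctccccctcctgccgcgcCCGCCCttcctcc
Basp1: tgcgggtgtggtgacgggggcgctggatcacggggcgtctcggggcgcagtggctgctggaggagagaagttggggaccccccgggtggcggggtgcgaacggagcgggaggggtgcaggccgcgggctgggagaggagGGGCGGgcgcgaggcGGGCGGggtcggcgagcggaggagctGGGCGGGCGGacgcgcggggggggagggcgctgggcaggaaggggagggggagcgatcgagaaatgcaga

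These promoters differed in base composition. C and T made up 84.0% of the Stmn3 stretch, more than in 99.97% of the 33469 promoters of the table, and 28.0% of the Basp1 stretch, where only 0.445% of promoters had less. The Basp1 stretch held 4 GC boxes, the last pair overlapping, and the Stmn3 stretch held 1. A GC box on either strand was present in 30.5% of all promoters of this length. The TATA box TATAAA, present in 12.9% of all promoters, was in neither of them.

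The 42 mRNA libraries held 11878367 to 49824782 counts. Annotated genes took 45.1% to 75.6% of the counts in plasma but 3.18% to 51.9% in brain, where this share was highest at 31 d. It averaged 13.9% ± 6.91 (SD, n = 3) in healthy rats, 23.5% ± 1.65 in controls at 4 d, 12.3% ± 1.03 at 10 d and 38.2% ± 6.89 at 31 d. In hNSCs rats it averaged 15.7% ± 5.00 at 4 d, 9.36% ± 6.94 at 10 d and 39.2% ± 11.4 at 31 d. The hNSCs libraries at 10 d held 569136 to 2955945 annotated counts. The remaining counts fell on features without an annotated gene. Genes are therefore compared between groups as CPM, counts scaled to library size, with the trimmed mean of M-values (TMM), which uses the annotated genes alone. Deposited FPKM values, which are per length of transcript, are used to compare genes with each other. In brain EVs all 10 neuron markers had counts, 9 of them in every library. In plasma EVs no neuron marker was detected in every library and Gad2 was at 0 in all 21.

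In brain EVs all 10 genes had counts in all 21 libraries, with 44 counts as the lowest value, for Stmn2 in a library that had few annotated counts. Basp1 had the highest median FPKM at 65.6 (range 19.6 to 115.5), which put it at rank 4 of the 18782 annotated genes. Calm3 followed at 24.6 (range 5.64 to 240.3), rank 19. Basp1 exceeded Calm3 in 14 of 21 libraries, so their order was not fixed. Stmn1 (median 15.02), Marcks (9.79), Stmn3 (6.54), Dpysl2 (5.40), Gap43 (4.71), Marcksl1 (4.58), Ncam1 (2.45) and Stmn2 (1.80) came next, on the FPKM scale. Among neighbours in this order, Marcks was above Stmn3 in 9 of 21 libraries, Gap43 above Marcksl1 in 12, and Ncam1 above Stmn2 in 12, and the other neighbouring pairs held in 14 to 20 libraries. The sprouting markers Gap43 and Stmn2 were thus among the less abundant mRNAs of the set, with Basp1 FPKM well above both.

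**Figure D1:**
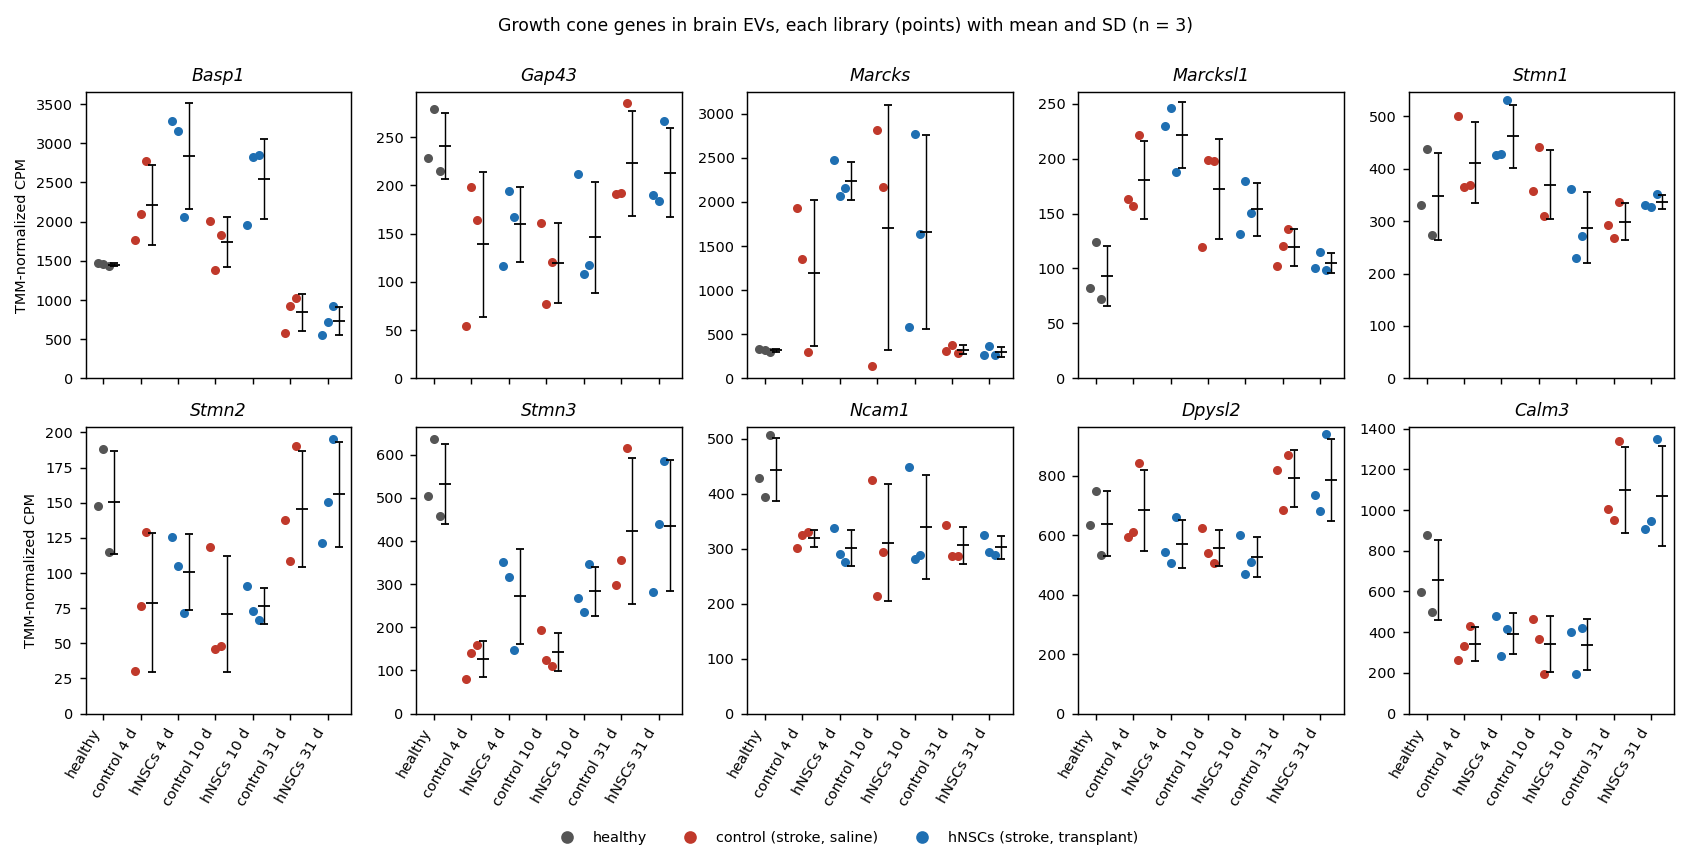
TMM-normalized CPM (y axis, linear, starting at 0 in each panel) of the 10 genes in brain EVs by group (x axis). Points are libraries, and the bar beside them is the mean with SD of 3 rats. Stmn3 is lowest in the control groups at 4 and 10 d, Calm3 is highest at 31 d, and Marcks is spread widely within the control groups at 4 and 10 d.

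The first comparison asked how the mRNAs of brain EVs differed between control stroke rats and healthy rats. Stmn3, the neuronal stathmin, fell at 4 d and at 10 d. Its TMM-normalized CPM were 504.4, 636.6 and 456.9 in the healthy rats and 80.9, 140.0 and 159.8 in the controls at 4 d. At 10 d they were 194.3, 124.5 and 109.8. All 6 of these control libraries lay below all 3 healthy ones. Stmn3 was 4.20-fold lower at 4 d (log2 fold −2.07 ± 0.38 SE, edgeR quasi-likelihood test, adjusted p = 0.0113) and 3.72-fold lower at 10 d (−1.90 ± 0.38, edgeR adjusted p = 0.0249). At 31 d its CPM were 297.4, 356.9 and 616.2, which overlapped the healthy values (−0.33 ± 0.36). Averaged over the 3 days, Stmn3 was 2.70-fold lower in controls than in healthy rats (edgeR adjusted p = 0.0270).

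Of the 10 genes, edgeR called Stmn3 alone at 4 d, at 10 d and in the mean of the 3 days. A gene is named called when it moved more than 1.5-fold and its p, adjusted by Benjamini-Hochberg over all 14515 genes tested, was below 0.05. Of all genes tested, 0.861% were called at 4 d (0.131% lower and 0.73% higher), 0.572% at 10 d (0.0344% lower and 0.537% higher) and 0.186% in the mean (0.0276% lower and 0.158% higher). The 4 d call was lost without control 4 d replicate 1 (edgeR adjusted p = 0.0943), healthy replicate 1 (0.083) or healthy replicate 3 (0.0593), and the log2 fold stayed between −2.28 and −1.83 with any 1 library left out. The 10 d call was lost without control 10 d replicate 2 or 3 or any of the 3 healthy libraries (adjusted p 0.0681 to 0.184), with log2 folds of −2.17 to −1.73. On FPKM, where the annotated share enters, limma gave differences of −0.97 and −1.48 at 4 and 10 d, and neither was called.

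On the TMM scale the other neuronal members had lower values that did not pass the test. Gap43 CPM were 228.5, 279.8 and 215.2 in healthy rats, 54.0, 198.6 and 163.9 at 4 d and 161.1, 77.4 and 120.4 at 10 d, with no overlap with the healthy values (−0.80 ± 0.40 and −1.01 ± 0.40, edgeR adjusted p = 0.357 and 0.280). Stmn2 differed by −0.93 ± 0.45 and −1.08 ± 0.46 (edgeR adjusted p = 0.339 and 0.320). At 31 d the log2 folds of Gap43 and Stmn2 were −0.11 ± 0.39 and −0.05 ± 0.45. None of these differences was called. On FPKM the means of Gap43 were 4.22 in healthy rats, 4.25 at 4 d and 2.16 at 10 d. Those of Stmn2 were 2.13, 1.92 and 1.05.

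Calm3 differed by −0.94 ± 0.34 at 4 d and by −0.94 ± 0.34 at 10 d (edgeR adjusted p = 0.171 and 0.245), and by 0.74 ± 0.33 at 31 d (edgeR adjusted p = 0.636). Its 3 control libraries at 31 d, with 1006, 951.8 and 1339 CPM, were all above the healthy ones at 595.6, 877.3 and 498.6. How reads that fit more than 1 gene were assigned is not given in the sources used here, so the values for Calm3 are less certain than those of the other members. Ncam1 differed by −0.48, −0.51 and −0.54 at 4, 10 and 31 d, each with an SE of 0.26 (edgeR adjusted p = 0.425 to 0.695). Dpysl2 differed by −0.20 to 0.31 and Stmn1 by −0.22 to 0.25 over the 3 days, and none of these differences was called.

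Marcksl1, Basp1 and Marcks had higher group means than healthy rats at 4 and 10 d, without passing the test in edgeR. Marcksl1 CPM were 163.1, 156.6 and 221.1 at 4 d, all above the healthy values of 82.6, 124.3 and 72.3 (0.95 ± 0.30, edgeR adjusted p = 0.127). At 10 d Marcksl1 differed by 0.88 ± 0.30 (edgeR adjusted p = 0.224). DESeq2, another count model, called Marcksl1 higher at both times (adjusted p = 0.0223 and 0.0297). DESeq2 called more genes than edgeR in the control comparisons given here, with 5.79% of all genes at 4 d, 4.13% at 10 d, 4.67% in the mean of the 3 days and 1.68% between 31 d and 4 d. Basp1 had 1765, 2100 and 2775 CPM at 4 d, above 1469, 1455 and 1436 in healthy rats, a difference of 0.61 ± 0.26 that was not called (edgeR adjusted p = 0.263). At 10 d Basp1 overlapped the healthy values (0.26 ± 0.26, edgeR adjusted p = 0.853).

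Marcks, which is broadly expressed, varied widely within groups. Its CPM were 329.8, 320.3 and 303.3 in healthy rats. In controls they were 1932, 1350 and 304.7 at 4 d and 145.7, 2811 and 2174 at 10 d, so 1 library in each group was within or below the healthy range and the other two lay between 1350 and 2811. The log2 folds of 1.91 ± 0.66 and 2.43 ± 0.67 were not called (edgeR adjusted p = 0.158 and 0.107). Without control 10 d replicate 1, the 10 d difference was 2.99 and was called (edgeR adjusted p = 0.0028), and DESeq2 called it with all libraries (2.53, adjusted p = 0.031). By 31 d the values were 311.1, 379.3 and 291.1, close to healthy (0.04 ± 0.63).

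**Figure D2:**
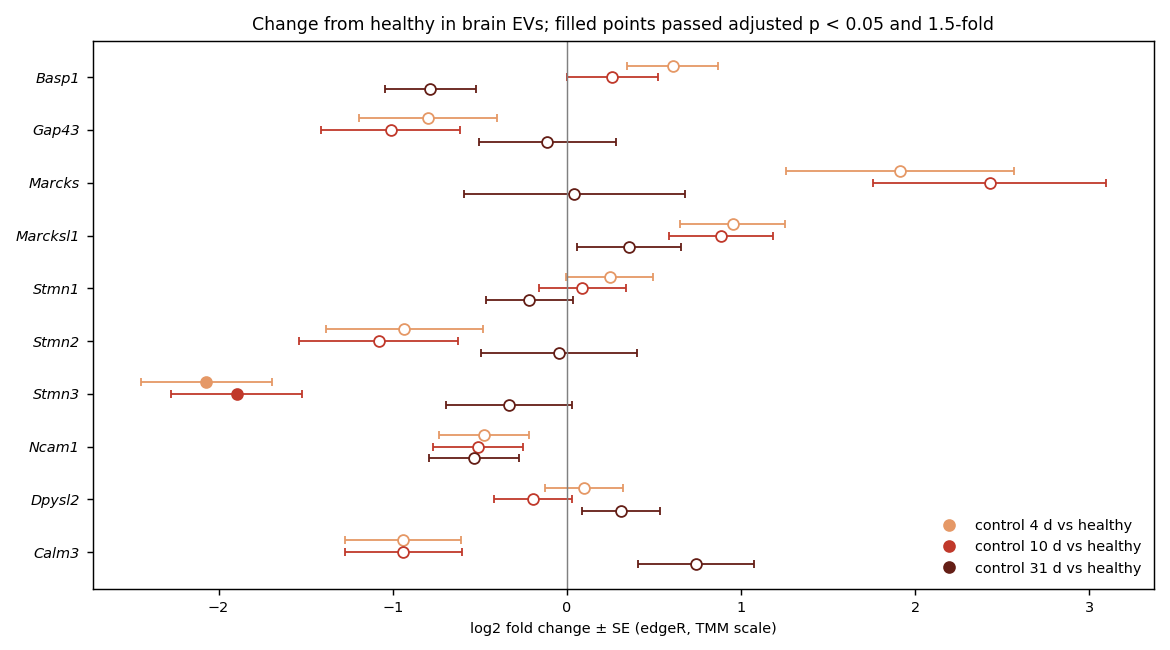
Log2 fold change from healthy (x axis, edgeR on the TMM scale) with its SE for the 10 genes (y axis) in brain EVs of control rats at 4, 10 and 31 d, 3 rats per group. Filled points passed the test, and only Stmn3 at 4 d (−2.07) and 10 d (−1.90) is filled.

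At 31 d none of the 10 genes was called against healthy rats with edgeR, although 3 had an unadjusted p under 0.05 (Basp1, Ncam1 and Calm3), and DESeq2 called none. Over all genes tested 0.00689% were called. This comparison depended on the scale. The median log2 fold of all tested genes was 0.24 on the TMM scale and 0.69 on the log2(FPKM + 1) scale, and with limma on FPKM all 10 genes were called higher, where 8272 genes in all were called higher and 57% of those tested were called in either direction (80.9% with a pseudocount of 0.1). On that scale 3.16% were called in the mean of the 3 days and 28.1% between 31 d and 4 d (7.21% and 18.1% with a pseudocount of 0.1). Basp1, for example, was −0.79 ± 0.26 on the TMM scale and 1.25 ± 0.52 on the FPKM scale. Basp1, Gap43, Stmn1, Stmn2, Stmn3 and Ncam1 changed sign between the scales, so no direction is given for them at 31 d relative to healthy rats.

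The next comparison asked whether the change from healthy differed between days, which is the difference between the control groups themselves. From 4 d to 31 d, Basp1 was 2.63-fold lower (−1.39 ± 0.26, edgeR adjusted p = 0.0285), Stmn3 was 3.34-fold higher (1.74 ± 0.37, adjusted p = 0.0480) and Calm3 was 3.21-fold higher (1.68 ± 0.34, adjusted p = 0.0296). Basp1 CPM were 579.1, 924.0 and 1027 at 31 d, all below those at 4 d. The 31 d values of Stmn3 and Calm3 were all above those at 4 d. Among all genes tested, 0.117% were called higher and 0.131% lower. With 3 rats a group, each of the 3 calls was lost when any 1 of the 6 libraries was left out, with edgeR adjusted p of 0.0567 to 0.216 for Basp1, 0.0714 to 0.498 for Stmn3 and 0.0567 to 0.291 for Calm3, while no direction changed. Stmn3 was also lost with the replicate number as a block (edgeR adjusted p = 0.0553) and with unannotated features included (0.0596). From 4 d to 10 d no member was called, none had an unadjusted p under 0.05 with edgeR, DESeq2 called none, and 0% of all genes were called.

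Ratios of read counts within a library do not depend on how libraries are scaled. These pairs were chosen after their values were seen, so the ratios are given without a test. Healthy libraries held 2.91, 2.28 and 3.14 Basp1 counts per Stmn3 count. Controls held 21.8, 15.01 and 17.4 at 4 d, 10.3, 11.1 and 16.7 at 10 d, and 1.95, 2.59 and 1.67 at 31 d. The 6 early control libraries thus did not overlap the healthy and 31 d libraries. The hNSCs groups held 9.35, 9.94 and 14.1 at 4 d, below the control range of that day, 7.32, 12.0 and 8.23 at 10 d, and 1.97, 1.64 and 1.58 at 31 d.

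Calm3 counts per Basp1 count were 0.405, 0.603 and 0.347 in healthy rats, 0.148, 0.159 and 0.155 in controls at 4 d, and 1.74, 1.03 and 1.30 in controls at 31 d. The hNSCs rats at 31 d, with 1.63, 1.31 and 1.46, had similar ratios to the controls of that day. All 6 libraries at 31 d lay above all 3 healthy ones. Gap43 counts per Stmn2 count, by contrast, had group means between 1.38 and 1.88 in all 7 groups, and single libraries ranged from 0.932 to 2.60.

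**Figure D3:**
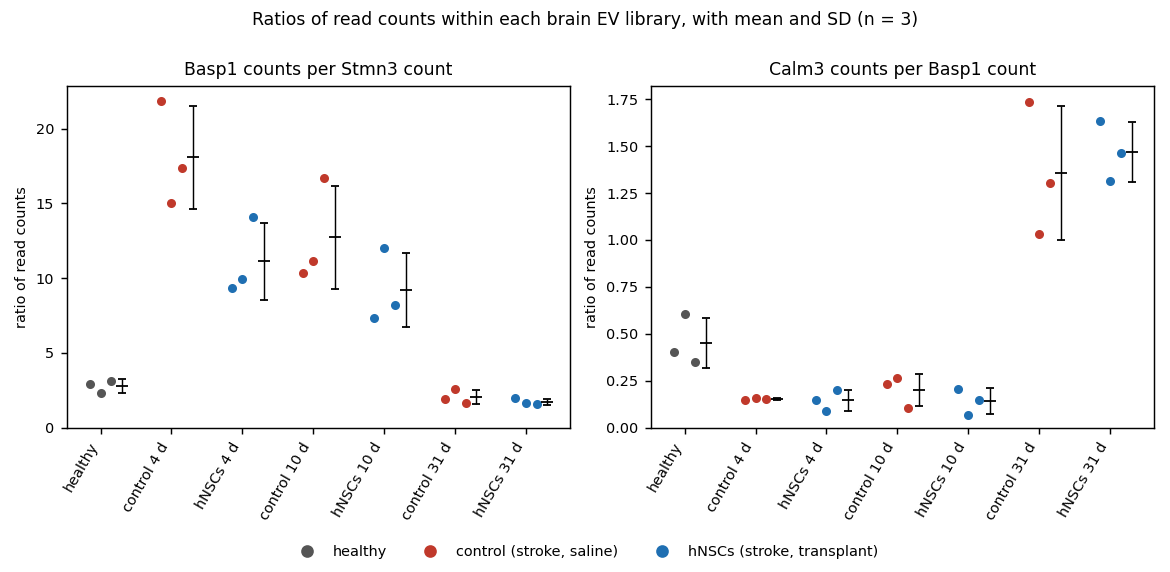
Ratios of read counts within each brain EV library (y axes, linear, starting at 0) by group (x axes). Points are libraries, and the bar is the mean with SD of 3 rats. Basp1 counts per Stmn3 count are 15.01 to 21.8 in controls at 4 d and 1.67 to 2.59 at 31 d, and Calm3 counts per Basp1 count are highest at 31 d.

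Markers of neurons and other cell types also changed between the groups. In bulk EVs, fewer vesicles from a cell type and less of an mRNA per vesicle cannot be told apart. The summed CPM of 10 neuron markers ranged from 7442 to 8782 in healthy rats, 3261 to 5826 in controls at 4 d, 2020 to 6805 at 10 d and 5478 to 8299 at 31 d. All 10 neuron markers had log2 folds below 0 at 4 and at 10 d, and 1 of them, the synaptic vesicle gene Syp, was called on both days (−2.44 and −2.02). Per 1000 CPM of neuron markers, Stmn3 had 67.8, 72.5 and 61.2 CPM in healthy rats and 24.8, 28.8 and 27.4 in controls at 4 d, without overlap. This ratio is to the sum of the markers and not to each of them, and Syp had a lower log2 fold than Stmn3 at 4 d (−2.44 and −2.07). At 10 d the ratios were 28.6, 61.6 and 26.8, and the library of 61.6 overlapped the healthy range. Gap43 per 1000 CPM of neuron markers averaged 30.5 ± 1.52 (SD, n = 3) in healthy rats and 28.5 ± 12.2 in controls at 4 d, with overlap. Calm3 on this scale was 142.8, 173.8 and 161.4 in controls at 31 d, above 80.04, 99.9 and 66.8 in healthy rats.

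The summed CPM of 10 microglia markers were 66.7 to 104.9 in healthy rats, 466.4 to 1004 in controls at 4 d, 180.2 to 1899 at 10 d and 202.7 to 388.4 at 31 d. Of these markers 1 was called higher at 4 d (C1qb) and 3 at 10 d (Csf1r, C1qa and C1qb). In the control groups at 4 and 10 d, the library with the lowest Marcks was also that with the fewest microglia markers. Control 4 d replicate 3, with 304.7 Marcks CPM, had 466.4 against 592.0 and 1004 in the other two. Control 10 d replicate 1, with 145.7 Marcks CPM, had 180.2 against 796.9 and 1899. Over the 21 brain libraries, Pearson r of the log2 values was 0.81. Marcks did not follow these markers in every library, since hNSCs 10 d replicate 3 had 1632 Marcks CPM with 290.9 microglia marker CPM. In hNSCs rats at 4 d, replicate 1 had the highest Marcks (2476) with the fewest microglia markers (645.6). Controls at 31 d had 291.1 to 379.3 Marcks CPM, near the healthy values, while their microglia markers stayed above the healthy range.

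Markers of other cell types differed between the same groups. The summed CPM of 7 astrocyte markers were 1313 to 1499 in healthy rats, 3474 to 3811 in controls at 4 d, 2615 to 3978 at 10 d and 4019 to 5131 at 31 d. Of these markers Gfap, the intermediate filament of reactive astrocytes, was called higher on each day, with log2 folds of 2.25 at 4 d and 1.99 at 10 d. The sums of 9 vascular cell markers were 366.4 to 488.2 in healthy rats, 1173 to 2120 at 4 d, 436.8 to 2656 at 10 d and 408.8 to 986.5 at 31 d, and none of these markers was called at 4 or 10 d. The sums of 11 leukocyte markers were 0 to 5.63 in healthy rats, 54.4 to 65.6 at 4 d, 26.8 to 73.2 at 10 d and 23.3 to 48.1 at 31 d. Ptprc, the pan-leukocyte antigen CD45, was the 1 leukocyte marker that could be tested, and it was called higher at 4 and 10 d (4.28 and 4.03). The sums of 7 oligodendrocyte markers were 2546 to 3038 in healthy rats, 3802 to 6307 at 4 d, 2817 to 12537 at 10 d and 1838 to 2144 at 31 d. The part of any of these cell types in the values of the 10 genes was not tested.

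**Figure D4:**
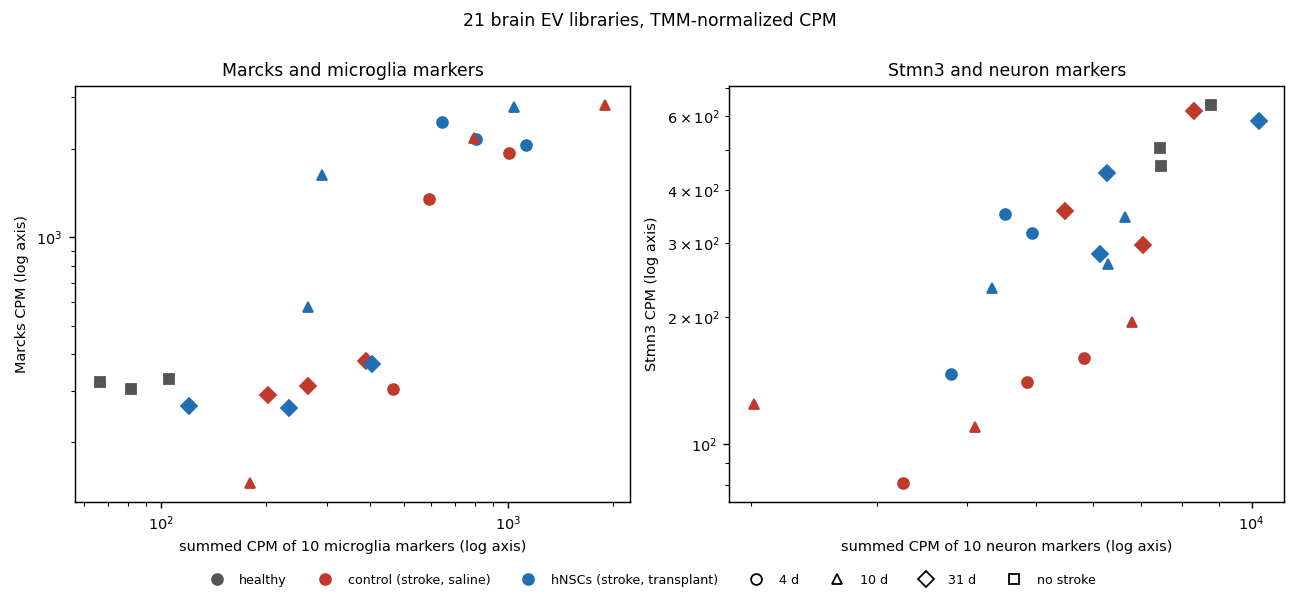
Left, Marcks CPM against the summed CPM of 10 microglia markers, and right, Stmn3 CPM against the summed CPM of 10 neuron markers, in 21 brain EV libraries (log axes). Colours are the groups and symbols the days. Marcks is at or above 1350 in libraries of 4 and 10 d alone, and no control library of those days exceeds 194.3 Stmn3 CPM.

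The comparison of hNSCs with control rats asked whether transplantation altered these mRNAs. In brain EVs no member was called at 4, 10 or 31 d, in the mean of the 3 days, or in the differences of the effect between days, and 0% of all genes tested were called in each of them. Unadjusted p-values under 0.05 were seen for Stmn3 at 4 d, for Stmn3 and Basp1 at 10 d, for no member at 31 d, and for Stmn3 in the mean of the 3 days. DESeq2 called Stmn3 in the mean (0.72 ± 0.22, adjusted p = 0.0371), where it called 2.36% of all genes, and no member on a single day or between days.

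Stmn3 had the largest difference over the 3 days among the 10 genes. Its CPM were 351.8, 317.4 and 146.4 in hNSCs rats at 4 d against 80.9, 140.0 and 159.8 in controls, a difference of 1.10 ± 0.37 in which 1 library overlapped (edgeR adjusted p = 0.522). At 10 d they were 267.8, 235.2 and 346.7 against 194.3, 124.5 and 109.8, without overlap (0.98 ± 0.37, edgeR adjusted p = 0.326). At 31 d the difference was 0.04 ± 0.36. Over the 3 days it was 0.71 ± 0.21 (edgeR adjusted p = 0.347), and it lay between 0.62 and 0.84 when each of the 18 libraries was left out in turn. The median of all tested genes was −0.20 in this comparison over the 3 days and −0.34 at 10 d alone. The difference between the effects at 31 d and 4 d was −1.06 ± 0.51 (edgeR adjusted p = 1.00).

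The summed CPM of neuron markers overlapped between hNSCs and control rats. They were 3805 to 4928 in hNSCs rats and 3261 to 5826 in controls, and 4338 to 6663 against 2020 to 6805 at 10 d, with no neuron marker called. Stmn3 per 1000 CPM of neuron markers was 77.7, 64.4 and 38.5 in hNSCs rats at 4 d, above the control values of 24.8 to 28.8. At 10 d it was 42.5, 54.2 and 52.0, within the control range of 26.8 to 61.6.

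The other members showed smaller differences or more spread. Marcks was 2476, 2068 and 2159 CPM in hNSCs rats at 4 d, each above the highest control of that day at 1932, but the difference of 0.90 ± 0.64 was not called (edgeR adjusted p = 1.00). Basp1 differed by 0.55 ± 0.26 at 10 d (edgeR adjusted p = 0.368). Gap43 and Stmn2 differed by 0.20 ± 0.39 and 0.35 ± 0.45 at 4 d and by 0.30 ± 0.40 and 0.11 ± 0.46 at 10 d. At 31 d the differences ranged from −0.20 (Basp1) to 0.17 (Stmn1) over the 10 members, with SEs of 0.22 to 0.63.

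Other growth genes were examined in 8 lists: relatives of the members, growth cone microtubule and actin genes, guidance ligands, guidance receptors, outgrowth inhibitors, regeneration-associated genes and outgrowth signalling genes, 92 genes in all. The lists, like the members, were chosen with earlier results of these data known. Of 90 tested in brain EVs at 4 d, 3 were called higher and 2 lower. Of all genes tested, 0.73% were called higher and 0.131% lower. Tmsb10, an actin-sequestering thymosin (2.30 ± 0.50), Rhoa, the GTPase that drives growth cone collapse (1.74 ± 0.42), and Ncan, a chondroitin sulfate proteoglycan of the perineuronal matrix (1.34 ± 0.27), were higher. Gpm6a, a neuronal membrane glycoprotein of filopodia (−2.32 ± 0.56), and Ppp3ca, the catalytic subunit of calcineurin (−1.34 ± 0.31), were lower.

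At 10 d, 3 of the 90 were called higher and 0 lower: Tmsb4x (4.00 ± 0.86), Tmsb10 (2.82 ± 0.51) and Rhoa (1.81 ± 0.42). Of all genes tested, 0.537% were called higher and 0.0344% lower. Thymosins are abundant in immune cells too, and the part of microglia in their values was not tested. At 31 d none was called, with 0.00689% of all genes called. Between 31 d and 4 d Ncan alone was called, lower at 31 d (−1.62 ± 0.28), with 0.248% of all genes called. At 4 d, 0 of the 9 tested regeneration-associated genes and 1 of the 14 relatives of the members were called. The share over all genes tested was 0.861%. No gene of the 8 lists was called in a comparison of hNSCs with controls in brain, where 0% of all genes were called.

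Over the 21 brain libraries, the genes whose log2 CPM followed the mean of the standardized values of the 10 members most closely, of 14505 other genes, were Itm2c (Pearson r = 0.73, Spearman rho = 0.63), Limk1 (0.73 and 0.69), Nfe2l1 (0.73 and 0.69), Gpr162 (0.72 and 0.80) and LOC108348122 (0.72 and 0.65). Limk1 encodes a kinase of the actin regulator cofilin. All points share their library and scaling, and the list is a description. Since members moved in different directions, their mean is not the profile of any 1 of them.

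In plasma EVs the members split into 2 sets. Basp1, Marcks, Marcksl1, Stmn1, Dpysl2 and Calm3 had counts in all 21 libraries, whereas Stmn3 had counts in 1 library, Gap43 and Stmn2 in 5 each and Ncam1 in 13. Stmn3 had 13 counts, in hNSCs 10 d replicate 3, and 0 in the other 20 libraries. Gap43 had 5 counts in healthy replicate 3, 99 in control 31 d replicate 2, 35 and 62 in hNSCs 10 d replicates 2 and 3, and 17 in hNSCs 31 d replicate 1. Stmn2 had 296 and 6 counts in control 10 d replicates 2 and 3, 90 in control 31 d replicate 2, and 4 and 53 in hNSCs 4 d replicates 1 and 2. Only control 31 d replicate 2 had counts of both sprouting markers. A count of 0 allows up to 3 counts, or 0.0967 to 0.472 CPM of annotated counts depending on the library, counting error only, so low levels in the remaining libraries were not detectable.

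Ncam1 had 0 to 592 counts in plasma. All 3 control libraries at 31 d had Ncam1 counts (38, 232 and 592) and all 3 hNSCs libraries of that day had 0. The edgeR test did not call this difference (adjusted p = 0.522). DESeq2 called it (adjusted p = 4.00e-15), with a fitted fold that has no bound because 1 group is at 0, and 8 of 21 libraries were at 0 in all.

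Calm3 and Dpysl2 were the steadiest members in plasma. Calm3 was at 89.6 FPKM in the median library (range 55.9 to 148.4) and Dpysl2 at 16.0 (range 7.56 to 25.4), and Calm3 was above Dpysl2 in 21 of 21 libraries. Stmn1 (median 14.02 FPKM) and Basp1 (13.02) followed, and Dpysl2, Stmn1 and Basp1 changed places between libraries, with Stmn1 above Basp1 in 10 of 21. Marcksl1 (5.56) and Marcks (5.13) were lower than Basp1 and changed places with each other, Marcksl1 being above Marcks in 11 of 21. Basp1 ranged from 0.714 to 72.1 FPKM. The most extreme values of Basp1 were 56 counts in control 4 d replicate 2 and 5329 in control 31 d replicate 2.

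No member was called in any plasma comparison with edgeR. Stmn3 could not be tested, since it did not pass the filter on low counts. The 9 tested members had 0 unadjusted p-values under 0.05 at 4 d and at 10 d against healthy rats, and 1 at 31 d (Basp1, 1.86 ± 0.84, edgeR adjusted p = 0.844). For hNSCs against controls there was 1 at 4 d (Marcks, −1.51 ± 0.65, edgeR adjusted p = 0.814), 0 at 10 d and 2 at 31 d (Basp1, −1.98 ± 0.84, and Ncam1). Basp1 CPM in plasma were 136.3, 255.3 and 51.8 in controls at 31 d, 50.9, 47.9 and 23.7 in healthy rats and 63.3, 34.1 and 15.01 in hNSCs rats at 31 d. Over all genes tested in plasma, 0.0679% were called at 4 d against healthy (0.0611% lower) and 0% at 10 and 31 d. Between hNSCs and controls 0.00679% were called at 4 d and 0% at 10 and 31 d. DESeq2 called only Gap43 or Ncam1, each time with a group of libraries at 0. Of all genes it called 6.16% and 8.25% at 4 and 10 d against healthy and 6.45% between 31 d and 4 d. For hNSCs against controls it called 7.76% at 10 d, 11.3% at 31 d and 9.48% in the mean, and 11.9% and 13.7% for the effect at 31 d against those at 4 d and 10 d.

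The summed CPM of 7 red cell markers varied strongly between plasma groups. They were 43469 to 79187 in healthy rats. In controls they were 11678 to 21458 at 4 d, 146991 to 156235 at 10 d and 55828 to 151494 at 31 d. In hNSCs rats they were 5500 to 12881 at 4 d, 103312 to 312006 at 10 d and 194655 to 306215 at 31 d. At 31 d the hNSCs and control ranges did not overlap. Leaving 9 hemoglobin genes out of the counts changed no call of a member. Platelet, leukocyte and liver markers were present in plasma as well, with ranges over all libraries of 731.7 to 21996, 168.6 to 2200 and 1069 to 37155 CPM. Marcks, Marcksl1, Stmn1 and Calm3 are also expressed in blood cells. The part of blood cell content in the plasma values was not tested, for these or for any other member.

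**Figure D5:**
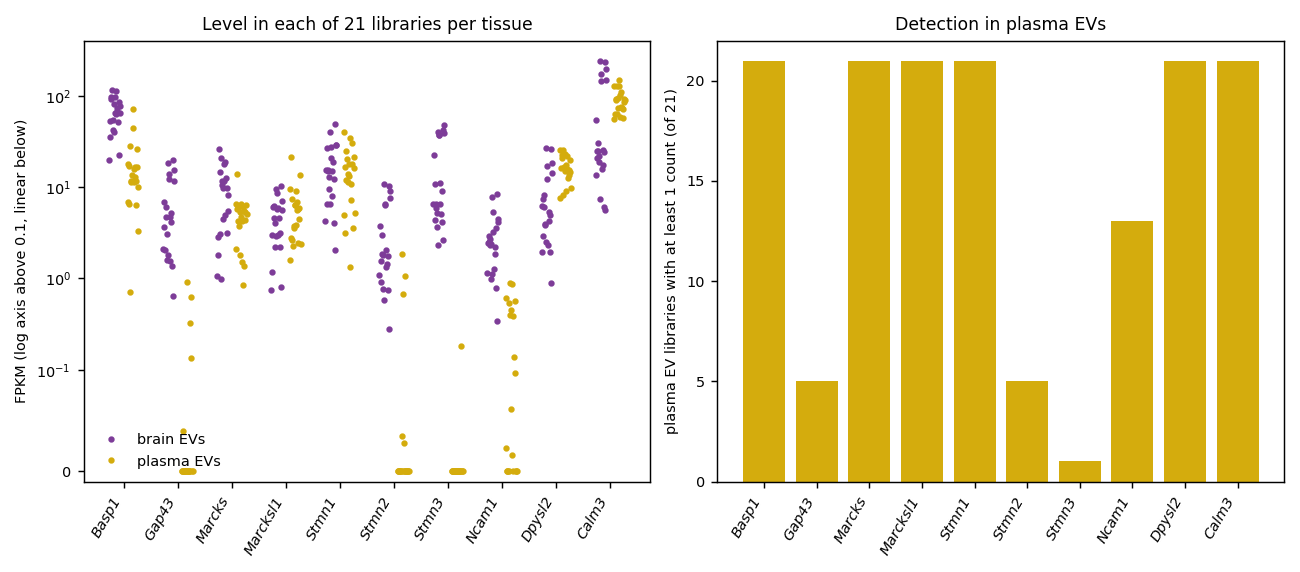
Left, FPKM (y axis, log above 0.1 and linear below) of the 10 genes (x axis) in each of 21 brain and 21 plasma EV libraries. Right, number of plasma libraries with at least 1 count. Gap43, Stmn2 and Stmn3 are at 0 in 16, 16 and 20 of 21 plasma libraries, while Calm3 and Dpysl2 lie in a narrow range.

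In a joint fit of both tissues, all 10 members were higher in brain EVs than in plasma EVs over the 7 groups and were called, where 29% of the 16945 genes tested were called higher in brain and 25.3% lower (66.4% in either direction with DESeq2). Among the 10, the difference was smallest for Dpysl2 (log2 fold 0.77 ± 0.12, edgeR adjusted p = 1.13e-06) and Calm3 (0.92 ± 0.14, adjusted p = 8.87e-07). It was 1.66 ± 0.22 for Marcksl1, 2.17 ± 0.25 for Stmn1, 2.97 ± 0.28 for Marcks and 4.26 ± 0.28 for Basp1. For Gap43, Stmn2, Stmn3 and Ncam1 whole plasma groups were at 0, so the fitted folds depend on the prior count and none is given. No test on FPKM was run between tissues. On FPKM the median library gave another order for the steady pair: Calm3 was at 24.6 in brain and 89.6 in plasma, and Dpysl2 at 5.40 and 16.0. Marcksl1 was at 4.58 and 5.56. The direction for Calm3, Dpysl2 and Marcksl1 thus turned with the scale.

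Brain and plasma EVs came from the same rats, so levels could be compared rat by rat. Of the 10 members 6 had a mean FPKM of at least 1 in both tissues. Over 21 rats, Pearson r between brain and plasma FPKM was 0.42 for Calm3 (Spearman rho = 0.42), 0.31 for Marcks (0.05), 0.28 for Basp1 (0.23), 0.26 for Marcksl1 (0.35), 0.11 for Dpysl2 (0.14) and −0.09 for Stmn1 (−0.01). The permutation p of Calm3 was 0.0578 for r and 0.0627 for rho. Adjusted over the 3369 genes tested, the permutation p of the 6 members was 0.654 to 0.968, and 0% of all genes passed. FPKM also carries the share of annotated counts in each library. On log2 CPM, r was 0.33 for Calm3, −0.33 for Marcks, −0.12 for Basp1, 0.20 for Marcksl1, −0.23 for Dpysl2 and −0.41 for Stmn1, so Marcks, Basp1 and Dpysl2 turned sign. The adjusted permutation p on that scale was 0.927 to 0.996 for the members, and 2 of the 3369 genes passed. For Calm3 r was 0.40 without the 2 rats farthest from the median brain value and −0.06 with values centred within groups. Centred in this way, r was 0.48 for Marcks, 0.23 for Basp1, −0.04 for Marcksl1, −0.01 for Dpysl2 and −0.25 for Stmn1, and 0 of the 3369 genes passed. For Marcks the uncentred r was −0.24 without the 2 rats farthest from its own median brain value, so its r over 21 rats rested on them.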

How the data were processed

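Read counts per gene and FPKM were deposited by the authors for 21 brain and 21 plasma EV mRNA libraries, made with a stranded total RNA kit. Per the study's methods, the authors aligned reads with Bowtie2 to the rat genome (Rnor_6.0, per the submitters' processing notes) and made the deposited FPKM values with StringTie. The counting tool and its strand setting are not given in the sources used here. The miRNA libraries were not used here. Of the columns of per-sample values, 0 were left unmapped.

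Counts were tested with edgeR 4.0.16 (R 4.3.3): TMM, filterByExpr, quasi-likelihood fit of group means over all 21 libraries of a tissue, Benjamini-Hochberg adjustment over 14515 (brain), 14720 (plasma) or 16945 (joint) annotated genes. Called means an adjusted p below 0.05 and more than 1.5-fold. Alternatives were DESeq2 1.42.0, limma 3.58.1 on log2(FPKM + 1) and log2(FPKM + 0.1), no filter, only the groups compared, a replicate block, unannotated features included, 9 hemoglobin genes left out (plasma), and each library left out. The fit was tested on simulated data. For the differences of the hNSCs effect between days, DESeq2, limma and the block were chosen after seeing the data. FPKM folds on a log scale with a pseudocount understate low genes. Correlations used 100000 permutations, two-sided. All 10 members are named, with up to 3 called genes of each other list by adjusted p, the 5 genes most like the members, and marker genes.

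The members and lists were chosen with earlier results of these data known. Replicates were separate rats. Brain and plasma libraries of a rat are paired by the labels. Their deviations from group means had a median correlation of 0.00556 (−0.0223 to 0.0446), and the blocked fit called the same number. Deviations of libraries with the same replicate number were correlated in 1 comparison, brain hNSCs against control at 31 d (r = 0.239, 0.239 and 0.298). Libraries with different numbers were not examined, so these values do not show pairing. Depth was 13221461 to 37651652 counts in brain and 11878367 to 49824782 in plasma. Reads carried no molecular identifiers here, so floors cover counting error only.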

Additional observations from a re-analysis of the deposited data

Results flagged for a closer look

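In brain EVs of control rats, the change from healthy differed between 31 d and 4 d for 3 of the 10 genes by the edgeR test of the difference itself. On the TMM scale Basp1 differed by −1.39 log2 units, Stmn3 by 1.74 and Calm3 by 1.68. The differences of Basp1 and Stmn3 from healthy at 31 d themselves turned sign between the TMM and the FPKM scale (−0.79 and 1.25 for Basp1, −0.33 and 1.62 for Stmn3), so no direction from healthy is given for them at 31 d. All 3 calls were lost with any 1 of the 6 control libraries left out. On log2(FPKM + 1) the difference between the days was −0.33 for Basp1, which was not called, and 2.59 for Stmn3, which was. Groups of 3 rats were too small for a test of single outlying samples.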

How the results depend on the processing

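The direction of Stmn3 at 4 and 10 d held under every alternative run, but the number of members called depended on the setting. With DESeq2, 2 members were called in brain at 4 d against healthy (5.79% of all genes), 3 at 10 d (4.13%), 2 in the mean of the 3 days (4.67%) and 1 in the mean of hNSCs against control (2.36%). With DESeq2 in plasma, 1 was called in each of control 4 d and 10 d against healthy, control 31 d against 4 d, hNSCs against control at 10 d, at 31 d and in the mean, and in the effect at 31 d minus 4 d, and 2 in the effect at 31 d minus 10 d, where DESeq2 called 6.16% to 13.7% of all genes. With limma on FPKM, 0 were called at 4 d and 0 at 10 d with either pseudocount, 10 at 31 d with either (57% and 80.9% of all genes), 2 in the mean with a pseudocount of 0.1 (7.21%), and 5 for control 31 d against 4 d with a pseudocount of 1 (28.1%, 4053 genes higher and 31 lower). With only the groups compared in the fit, 0 were called at 10 d. The cause was not tested. With pseudocounts of 1 and 0.1 on FPKM, the differences from healthy at 31 d turned to 1.25 and 1.27 for Basp1, 1.70 and 1.94 for Gap43, 1.76 and 1.89 for Stmn1, 1.57 and 1.99 for Stmn2, 1.62 and 1.71 for Stmn3, and 1.06 and 1.37 for Ncam1.

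With 1 library left out, 0 to 1 members were called at 4 d, 0 to 2 at 10 d, 0 to 2 in the mean (Stmn3 was lost in 7 of 12 cases) and 0 to 0 for control 31 d against 4 d. With the replicate number as a block, 1 member was called at 4 d, 1 at 10 d, 0 at 31 d and 2 for control 31 d against 4 d, where Stmn3 was lost. No other call changed under the block, and all 10 were called between tissues. In the main fits 0.861% of all genes were called at 4 d, 0.572% at 10 d and 0.186% in the mean. For control 31 d against 4 d it was 0.248%, and between tissues 54.3%. The shares with 1 library left out or with the block are not given here. A change in the calls of members therefore cannot be told from a change over all genes.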
